A study of Mus musculus with 2 samples.

Results

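Heat shock chaperones were described in nuclei of the injured mouse spinal cord as 10 genes picked by symbol from the 32285 genes of the deposited count tables. They were Hspb1 and Cryab, which encode small heat shock proteins, and Hspa1a, Hspa1b, Hspa8, Hsph1, Dnajb1, Bag3, Hsp90aa1 and Hspd1. The list was drawn up with values of these same 2 libraries in view, and the pair of small heat shock genes was to be set against the other 8, so each difference between libraries below is a description and none is a test. All 10 had at least 50 UMIs (unique molecular identifiers, each standing for 1 captured RNA molecule) in the 2 libraries together.

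The study asked what extracellular vesicles derived from athletes, called AEVs, do in the cord after injury. Extracellular vesicles are membrane-bound particles that cells release. C57BL/6 wild-type mice aged 6 to 8 weeks all received a contusion of the cord at T10, a thoracic level, from a rod of 5 g and 1 mm diameter that fell 6 cm, and all were given antibiotics each day for 5 days. The AEVs group then had 100 µg of vesicle protein in 100 µL of phosphate-buffered saline by tail vein on each of 5 days, and the PBS group had 100 µL of the saline alone. Cords were taken on day 7. Each group was 1 library made from 3 mice pooled, so animal, pool and treatment cannot be told apart. With 1 library per group there is no replicate check, and the intervals below are 95% intervals for counting error only. Those of levels and ratios treat UMIs as independent and leave out the spread between nuclei.

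Heat shock chaperones bind unfolded proteins and keep them from clumping. When proteins unfold, heat shock factor 1 binds heat shock elements, repeats of the letters GAA and their reverse TTC, and switches on many of these genes. Small heat shock proteins hold unfolded clients without using ATP. HSP70 proteins fold them in an ATP cycle that J-domain proteins start and that BAG and HSP110 proteins reset, HSP90 finishes signalling proteins, and HSP60 works inside mitochondria. In the cord, CRYAB is known from oligodendrocytes, the myelin-forming cells, and HSPB1 from reactive astrocytes, vessels and injured neurons.

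After filtering, 14023 nuclei of the PBS library and 15549 of the AEVs library were kept, with 73085370 and 68103073 UMIs and a median of 2600 and 2400 UMIs per nucleus. As deposited, the libraries shared 177 barcodes, and 146 of these were among the kept nuclei of both. The nuclei formed 30 clusters, and 12 classes held at least 100 nuclei in each library. A class ending in -like had raised markers of that cell type. The other 3 sets are called by their leading genes: Gpnmb-led myeloid nuclei, a Klk6-led cluster in which 10 of 10 oligodendrocyte markers were also raised, and a neurofilament-led cluster (Nefh, Nefm, Nefl) with a median of 866 and 901 UMIs. The macrophage-like cluster also held the T cell gene Themis among its leading genes.

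Over all nuclei, Hspb1 was the only one of the 10 genes with a higher level in the AEVs library. Its level was 71.3 CPM (UMIs per 1000000 UMIs) in the PBS library and 203 CPM in the AEVs library, a log2 ratio (AEVs over PBS) of 1.51 (1.46 to 1.56). Cryab, the other small heat shock gene, went the opposite way, from 350 to 158 CPM, a log2 ratio of -1.15 (-1.18 to -1.12). All 8 other chaperones were lower in the AEVs library, with a median log2 ratio of -0.34 and a range from -1.83 for Hspa1b to -0.13 for Hspd1. Across the 18987 genes that had 50 or more UMIs the median was 0.10, with quartiles of -0.12 and 0.33. A difference of at least 1.5-fold upward was seen for 1 of the 10 genes, Hspb1, and for 10.3% of all genes. A difference of that size downward was seen for 4 of the 10, Cryab, Hspa1a, Hspa1b and Hsph1, and for 4.78% of all genes. Because the list was chosen on this contrast, nothing is read from those shares.

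**Figure D1:**
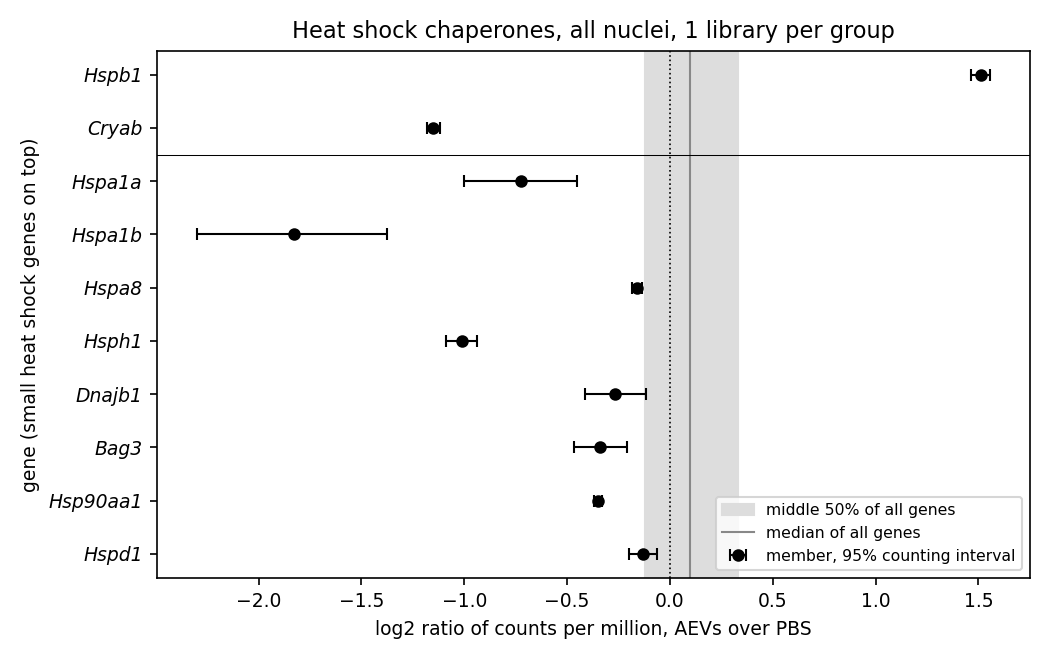
Log2 ratio of CPM, AEVs over PBS library, for the 10 genes over all nuclei (x axis, points with 95% counting intervals), with the median and quartiles of all 18987 genes. Hspb1 alone lies to the right, at 1.51, and Cryab lies at -1.15 beside the 8 others.

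The mean of the small heat shock pair minus the median of the 8 others was 0.52 over all nuclei, an average over 2 genes with opposite signs. Without the 1% of nuclei with most UMIs of each gene it was 0.16. The pair is therefore described gene by gene.

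The upstream sequences were not used to choose the list. Heat shock factor 1 is known to switch on many of these genes, so nothing is read from the shares below. RefSeq promoter windows of GRCm38.p6, from 250 bases before to 50 after a start site, were at hand for 7 of the 10 genes, all but Cryab, Hsp90aa1 and Hspa8. Both strands were searched for 2 heat shock units in a row, GAANNTTC or TTCNNGAA, and for 3-unit forms, in which GAANNTTC goes on with NNGAA or TTCNNGAA with NNTTC, so that a 3-unit form holds 2 overlapping 2-unit matches. Of 32851 windows of that length in the genome, 15.1% held the 2-unit letters and 0.603% a 3-unit form. Of the 7 genes, 6 held the 2-unit letters, all but Dnajb1, and 2 held a 3-unit form, Hsph1 and Hspd1. Some genes have 2 windows, and counted by window, as the shares above are, 7 of 10 held the 2-unit letters and 3 of 10 a 3-unit form. The 2 Hsph1 windows overlap and hold the same 3-unit form, which is counted in both. Hspb1 is shown because it was the one gene with a higher level, and Hspa1a with Hspa1b because Hspa1b had the lowest ratio of the 10 and Hspa1a is its near copy. The 250 bases before each start site are given 5′ to 3′ on the gene's strand, with the matching letters in capitals.
Hspb1: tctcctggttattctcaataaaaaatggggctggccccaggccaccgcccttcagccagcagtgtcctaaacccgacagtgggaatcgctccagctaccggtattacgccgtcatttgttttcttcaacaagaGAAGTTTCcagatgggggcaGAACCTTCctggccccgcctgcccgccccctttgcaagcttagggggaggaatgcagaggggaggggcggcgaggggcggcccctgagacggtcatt
Hspa1a: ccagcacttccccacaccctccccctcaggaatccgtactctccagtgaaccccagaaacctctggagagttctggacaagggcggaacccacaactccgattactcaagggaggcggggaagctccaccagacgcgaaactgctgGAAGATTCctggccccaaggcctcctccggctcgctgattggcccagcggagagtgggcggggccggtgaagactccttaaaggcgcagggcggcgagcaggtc
Hspa1b: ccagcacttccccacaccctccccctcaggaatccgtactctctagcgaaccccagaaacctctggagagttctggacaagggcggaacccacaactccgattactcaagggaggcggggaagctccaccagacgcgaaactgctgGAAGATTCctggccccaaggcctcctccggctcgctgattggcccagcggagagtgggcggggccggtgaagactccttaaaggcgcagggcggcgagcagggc

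The Hspb1 stretch is chr5:135887669-135887918 on the plus strand, with matches that start 117 and 97 bases before the start site. The Hspa1a stretch is chr17:34972157-34972406 and the Hspa1b stretch chr17:34959239-34959488, both on the minus strand, each with 1 match that starts 104 bases before the start site. The windows of these 2 genes were identical at 296 of 300 bases, 98.7%. The 3-unit forms of Hsph1 (chr5:149636280-149636309, minus strand) and Hspd1 (chr1:55088053-55088082, minus strand) are shown as 30 bases each because they held that longer form. The Hsph1 letters lie just after the start site of the second of its 2 windows, and the Hspd1 letters before the start site of the second of 2. All 250 bases before that Hspd1 start site lay in annotated exons, counted on either strand.
Hsph1: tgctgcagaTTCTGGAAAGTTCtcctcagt
Hspd1: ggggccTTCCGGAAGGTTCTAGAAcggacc

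A match is a run of letters and not a measured binding site. Among the 6 genes with the 2-unit letters, Hspb1 was higher in the AEVs library and Hspa1a, Hspa1b, Hsph1, Bag3 and Hspd1 were lower.

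Hspb1 (ENSMUSG00000004951, chromosome 5, 135887919 to 135889563, plus strand) encodes a small heat shock protein that also steadies actin filaments. In astrocyte-like nuclei it was read at 573 CPM in the PBS library (2291 UMIs, 976 nuclei) and at 2213 in the AEVs library (9277 UMIs, 1187 nuclei). The AEVs level was 3.86-fold the PBS level (3.69 to 4.04), a log2 ratio of 1.95. Both astrocyte-like clusters had the higher level in the AEVs library. Cluster 4, in which Hspb1 was itself among the leading genes along with Gfap and Vim, went from 1753 to 4889 CPM, and cluster 13 from 478 to 1923. The AEVs value of cluster 13 includes 1 nucleus with 2429 of the 9277 Hspb1 UMIs of the class. Of the 10 astrocyte markers in astrocyte-like nuclei, 4 were higher and 6 lower, with a median log2 ratio of -0.08 and a summed level of 17956 and 16930 CPM.

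More astrocyte-like nuclei held Hspb1 in the AEVs library, and some held far more of it. Nuclei with at least 1 Hspb1 UMI were 33.1% of the PBS and 52.2% of the AEVs nuclei, and 17.6% and 34.5% after each nucleus was thinned to 1000 UMIs, which left out 148 and 195 shallower nuclei. In neuron-like nuclei, which held the lowest level, the thinned share was 1.36% and 2.72%, with a median depth of 10235 and 7640 UMIs against 3423 and 2799 in astrocyte-like nuclei. At least 20 Hspb1 UMIs were found in 26 PBS nuclei, 2.66%, and in 85 AEVs nuclei, 7.16%. One AEVs nucleus, in cluster 13, held 2429 Hspb1 UMIs, 4.92% of its own RNA and 17.6% of all Hspb1 UMIs in that library. Without the nucleus of each library with most Hspb1 UMIs the log2 ratio was 1.64 in the class and 1.29 over all nuclei. Without the top 1% of nuclei it was 1.61 and 1.01.

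Hspb1 was not highest in the same class in both libraries. In the PBS library the order was endothelial-like nuclei at 764 CPM, astrocyte-like at 573, the neurofilament-led cluster at 506 and fibroblast-like nuclei at 161, and the intervals of the astrocyte-like and neurofilament-led values overlapped. In the AEVs library astrocyte-like nuclei led at 2213, followed by endothelial-like nuclei at 582, the neurofilament-led cluster at 559 and fibroblast-like nuclei at 485, of which each overlapped the next in its interval. Astrocyte-like nuclei gave 44.0% of all Hspb1 UMIs in the PBS library and 67.0% in the AEVs library, from 5.47% and 6.16% of all UMIs. Fibroblast-like nuclei had a level 3.01-fold as high in the AEVs library (2.64 to 3.43), and 4 of 8 astrocyte markers there were higher, with summed levels of 2443 and 3409 CPM. The part of these markers in the Hspb1 value was not tested.

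Endothelial-like nuclei were the exception among the 11 classes with enough Hspb1 UMIs, and the other 10 had the higher level in the AEVs library. Several of those held little Hspb1. Levels were 18.0 and 47.1 CPM in oligodendrocyte-like, 15.1 and 39.3 in oligodendrocyte precursor-like and 35.5 and 89.1 in Gpnmb-led nuclei. The Klk6-led cluster had 19.5 and 36.5. Whether RNA from astrocyte-like nuclei entered these low values was not tested. The endothelial-like level was 764 CPM in the PBS library (465 UMIs) and 582 in the AEVs library (425 UMIs), a log2 ratio of -0.39 (-0.59 to -0.20). The share of nuclei with a UMI was 45.7% and 37.0%. All 8 astrocyte markers that were measured in this class were lower too, with summed levels of 2091 and 1211 CPM. The class also held markers of mural cells, which wrap vessels (2755 and 3252 CPM, 5 of 10 higher). Red blood cell markers summed to 2007 and 5062 CPM with 4 of 4 higher, and endothelial markers to 7615 and 8404 with 7 of 10 higher. The part of these markers in the Hspb1 value was not tested. Microglia-like nuclei (56.8 and 61.2 CPM) and the neurofilament-led cluster (506 and 559) had ratios whose intervals included 0 on the log2 scale.

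**Figure D2:**
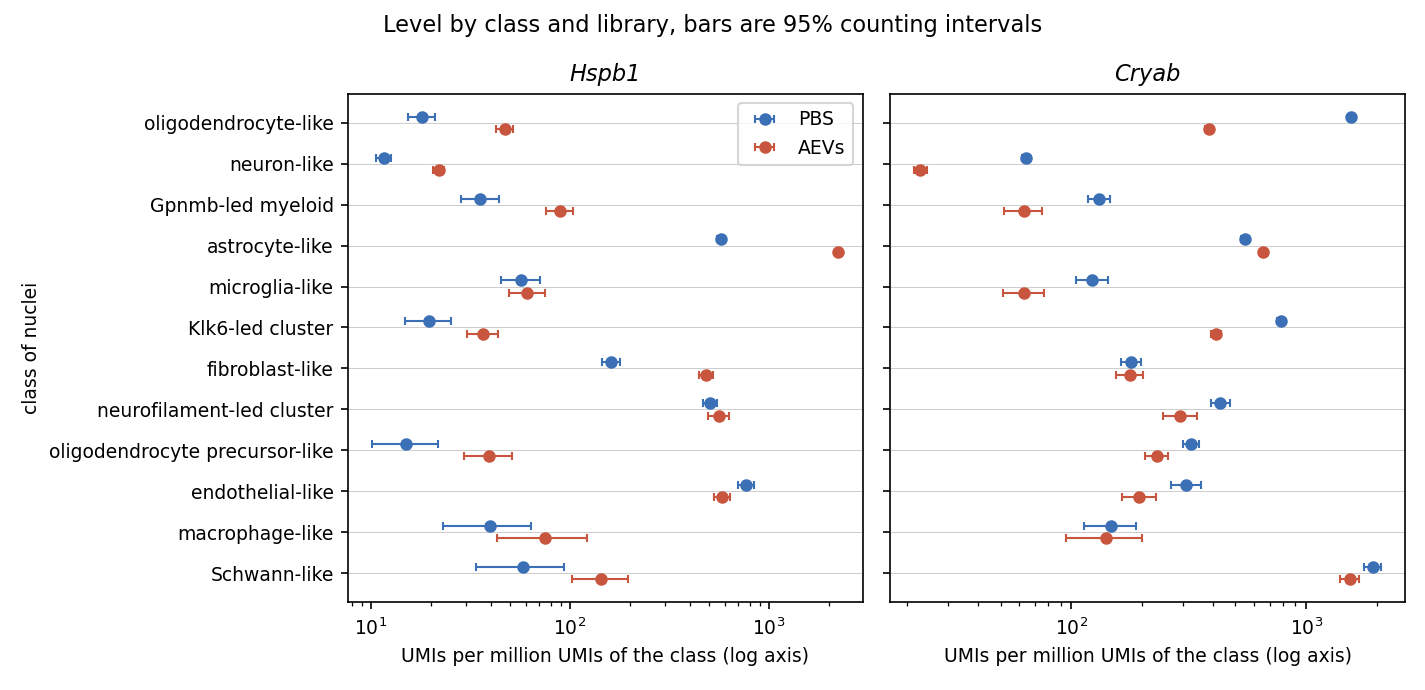
Levels of Hspb1 and Cryab in 12 classes of nuclei (rows) in CPM on a log axis, blue for the PBS and red for the AEVs library, with 95% counting intervals. Hspb1 in astrocyte-like nuclei moves from 573 to 2213 while Cryab in oligodendrocyte-like nuclei moves from 1556 to 385.

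Cryab (ENSMUSG00000032060, chromosome 9, 50751325 to 50756636, plus strand) encodes alpha-B crystallin, the other small heat shock protein of the list. In oligodendrocyte-like nuclei it stood at 1556 CPM in the PBS library (14510 UMIs, 3821 nuclei) and at 385 in the AEVs library (3415 UMIs, 4454 nuclei). The PBS level was 4.04-fold the AEVs level, a log2 ratio of -2.01 (-2.07 to -1.96). These nuclei came from 3 clusters that the libraries filled unequally, with 2097 PBS and 383 AEVs nuclei in cluster 10 and 430 and 2633 in cluster 11. Cryab was lower in each of them, from 1774 to 412 CPM in cluster 5, from 1352 to 345 in cluster 10 and from 1910 to 375 in cluster 11. The 10 oligodendrocyte markers did not follow, with 6 higher, 4 lower, a median log2 ratio of 0.05 and summed levels of 23568 and 22232 CPM.

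The Cryab difference ran through the whole class and not through a few nuclei. At least 1 Cryab UMI was found in 88.8% of the PBS and 45.3% of the AEVs nuclei, and at least 5 in 32.4% and 1.30%. Thinned to 1000 UMIs, the shares were 72.1% and 29.3%, with 179 and 310 shallower nuclei left out. In neuron-like nuclei, which had the lowest level, the thinned shares were 6.14% and 2.54%, and the median depths were 10235 and 7640 UMIs against 2234 and 1879 in oligodendrocyte-like nuclei. In the Klk6-led cluster, the other set with oligodendrocyte markers, the level was 782 and 413 CPM, a log2 ratio of -0.92 (-1.01 to -0.82). With that cluster counted among the oligodendrocyte-like nuclei, the log2 ratio of the class was -1.80. Schwann-like nuclei, the myelinating cells of peripheral nerve, had the highest level in both libraries, 1923 and 1533 CPM, with a log2 ratio of -0.33 (-0.51 to -0.14).

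**Figure D3:**
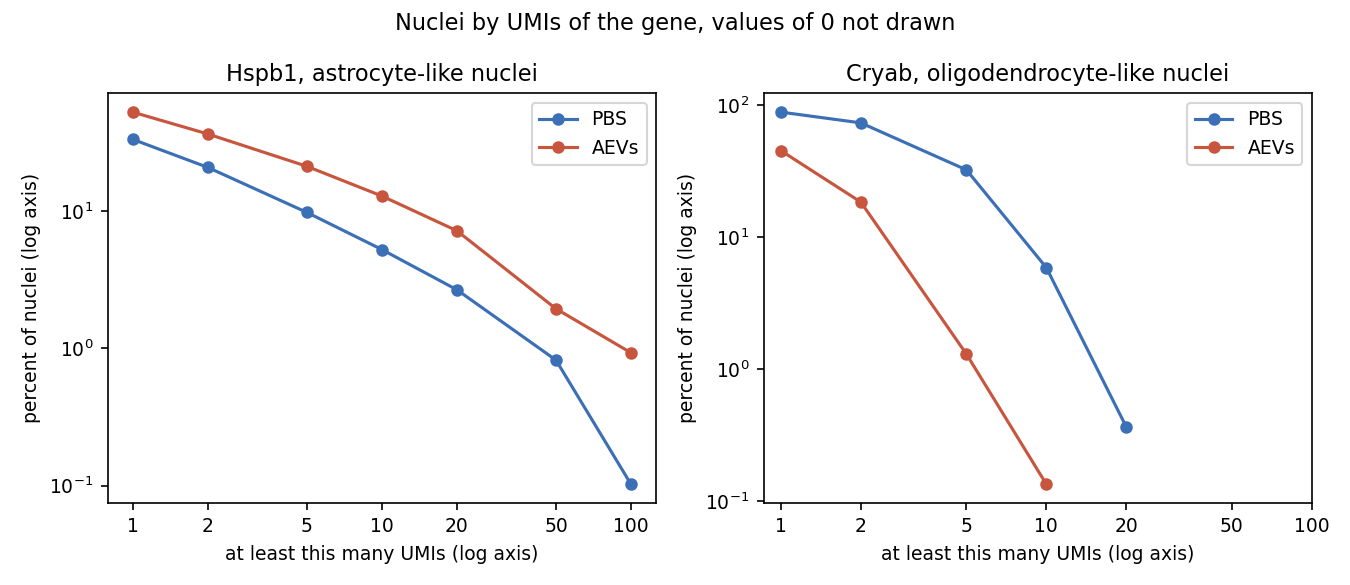
Percent of nuclei with at least a given number of UMIs (both axes log), for Hspb1 in astrocyte-like and Cryab in oligodendrocyte-like nuclei, blue for the PBS and red for the AEVs library. Both pairs of lines part toward more UMIs, with the AEVs line above for Hspb1 (33.1% and 52.2% of nuclei at 1 UMI, 2.66% and 7.16% at 20) and below for Cryab (88.8% and 45.3% at 1 UMI, 32.4% and 1.30% at 5).

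Astrocyte-like nuclei were the single class of 12 with a higher Cryab level in the AEVs library. It read 549 CPM in the PBS library (2195 UMIs) and 657 in the AEVs library (2755 UMIs), a log2 ratio of 0.26 (0.18 to 0.34), and both clusters had that direction. The share of nuclei with a UMI was close in the libraries, 58.1% and 55.9%. The order of the classes by Cryab level differed between libraries. Oligodendrocyte-like nuclei stood next to Schwann-like nuclei in the PBS library. In the AEVs library they stood behind Schwann-like nuclei at 1533, astrocyte-like at 657 and the Klk6-led cluster at 413. The AEVs intervals of the Klk6-led and oligodendrocyte-like values overlapped. Astrocyte-like nuclei held 8.58% of all Cryab UMIs in the PBS library and 25.6% in the AEVs library, from 5.47% and 6.16% of all UMIs. These are shares of a Cryab total that was lower in the AEVs library. The part of oligodendrocyte-like nuclei in it was 56.7% and 31.8%.

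In neuron-like and Gpnmb-led nuclei, which held little Cryab, the AEVs level was lower as well, beside lower oligodendrocyte markers. Neuron-like nuclei went from 64.2 to 22.8 CPM and Gpnmb-led myeloid nuclei from 132 to 62.7. Over both libraries, neuron-like nuclei had 0.0252 of the level of the highest class, and Gpnmb-led nuclei 0.0589. Oligodendrocyte markers summed to 776 and 538 CPM in neuron-like nuclei, with 9 of 10 lower, and to 1504 and 1025 in Gpnmb-led nuclei, with 10 of 10 lower. The part of those markers in the low Cryab values was not tested. Fibroblast-like (180 and 177) and macrophage-like nuclei (147 and 141) had ratios whose intervals included 0.

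Among the HSP70 genes, Hspa1a and Hspa1b are the copies that stress switches on. Hspa1a (ENSMUSG00000091971, chromosome 17, 34969190 to 34972156, minus strand) had 312 UMIs in the PBS library and 176 in the AEVs library over all nuclei, 4.27 and 2.58 CPM, a log2 ratio of -0.72, or 0.605 of the PBS level (0.500 to 0.731). Hspa1b (ENSMUSG00000090877, chromosome 17, 34956436 to 34959238, minus strand) had 194 and 51 UMIs, 2.65 and 0.75 CPM, a log2 ratio of -1.83 (-2.30 to -1.37). Both have 1 exon, and 49.3% and 52.3% of the 90-base stretches of each transcript were also in the other, so reads could be split between them. In the last 500 bases, where a 3-prime library reads, 0% of such stretches were shared.

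Both copies were sparse, with a UMI in 1.98% and 1.08% of nuclei for Hspa1a and in 1.27% and 0.322% for Hspa1b. Of the 2 classes with enough UMIs of both, the wider gap was in oligodendrocyte-like nuclei, where Hspa1b had 63 UMIs in the PBS library and 6 in the AEVs library and Hspa1a had 47 and 11. Their log2 ratios there were -3.32 (-4.82 to -2.12) and -2.02 (-3.12 to -1.05). Neuron-like nuclei, the other class, had 138 and 85 for Hspa1a and 39 and 14 for Hspa1b. Ependymal-like nuclei, only 85 and 83 in number, held 31 and 2 UMIs of Hspa1a and 41 and 1 of Hspa1b. Their PBS levels, 89.9 and 119 CPM, were above those of all 12 classes. Fibroblast-like nuclei had 21 and 26 UMIs of Hspa1a and 8 and 14 of Hspa1b, under the minimum of 50, and had the highest AEVs level of both, 21.5 and 11.6 CPM, with intervals that overlapped those of endothelial-like nuclei.

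Hspa8 (ENSMUSG00000015656, chromosome 9, 40800984 to 40810087, plus strand) encodes the HSP70 that cells make without stress. It was read at 383 CPM in the PBS library and 343 in the AEVs library, a log2 ratio of -0.16 (-0.18 to -0.13). It was lower in 11 of 12 classes, most in endothelial-like nuclei, from 639 to 402 CPM, a log2 ratio of -0.67. Neuron-like nuclei were the exception with 335 and 347 CPM, a log2 ratio of 0.05 (0.02 to 0.09). That value was under the median of all genes in the class, 0.11. It turned negative when the class was centred on the median of genes with at least 100 UMIs, also 0.11.

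The helpers of the HSP70 cycle were lower to unequal degrees. Hsph1 (ENSMUSG00000029657, chromosome 5, 149614287 to 149636376, minus strand), an HSP110 that exchanges the nucleotide of HSP70 and pulls clumps apart, went from 61.2 to 30.3 CPM (4473 and 2066 UMIs), a log2 ratio of -1.01 (-1.09 to -0.94). It was lower in all 9 classes with enough UMIs, from -0.22 in oligodendrocyte-like nuclei to -1.39 in the neurofilament-led cluster. Dnajb1 (ENSMUSG00000005483, chromosome 8, 83608193 to 83612653, plus strand), the J-domain protein that starts the HSP70 cycle, went from 11.8 to 9.84 CPM, a log2 ratio of -0.27 (-0.41 to -0.12). Bag3 (ENSMUSG00000030847, chromosome 7, 128523616 to 128546981, plus strand), which links HSP70 and small heat shock proteins to autophagy, went from 16.3 to 12.9, a log2 ratio of -0.34 (-0.47 to -0.21).

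Classes differed for these helpers. Dnajb1 was at 39.3 CPM in the PBS library and 16.1 in the AEVs library in the neurofilament-led cluster (42 and 8 UMIs), while in neuron-like nuclei it was at 10.5 and 9.69, an interval that included 0. Bag3 was higher in the AEVs library in Gpnmb-led myeloid nuclei, 13.3 and 22.1 CPM from 33 and 41 UMIs, a log2 ratio of 0.73 (0.04 to 1.44), and lower in astrocyte-like nuclei, 62.8 and 50.3 CPM. In oligodendrocyte-like nuclei Bag3 was at 14.5 and 15.8 CPM, an interval that included 0, beside the lower Hspa1a and Hspa1b.

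Hsp90aa1 (ENSMUSG00000021270, chromosome 12, 110690605 to 110702728, minus strand) encodes the stress-inducible HSP90. It went from 709 to 557 CPM over all nuclei (51798 and 37920 UMIs), a log2 ratio of -0.35 (-0.37 to -0.33). It was lower in all 12 classes, and each of the 12 intervals stayed below 0. The range ran from -0.14 in astrocyte-like nuclei (450 and 409 CPM) to -1.15 in macrophage-like nuclei (374 and 169 CPM, from 160 and 36 UMIs). In that class 10 of 10 T or NK cell markers were lower (summed levels of 4549 and 1650 CPM), B cell markers summed to 6066 and 464 CPM with 2 of 3 lower, and 7 of 10 macrophage markers were higher (9221 and 13232 CPM). The part of these markers in the value was not tested. Microglia-like nuclei were next at 248 and 121 CPM, a log2 ratio of -1.03 (-1.30 to -0.78).

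Hspd1 (ENSMUSG00000025980, chromosome 1, 55077835 to 55088243, minus strand) encodes HSP60, the mitochondrial chaperonin. Its level was 53.1 and 48.5 CPM, a log2 ratio of -0.13 (-0.20 to -0.06), the smallest of the 10. Of 10 classes with enough UMIs, 7 were lower and 3 higher, and the interval stayed below 0 in 3, the oligodendrocyte-like (-0.36), neurofilament-led (-0.51) and oligodendrocyte precursor-like nuclei (-0.82). In neuron-like nuclei, which gave most Hspd1 UMIs, the level was 51.2 and 49.8 CPM.

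Among the 12 classes, the neurofilament-led cluster held the highest PBS level of 6 of the 10 genes, Hsph1, Dnajb1, Hsp90aa1, Hspa8, Bag3 and Hspd1, and the interval of Dnajb1 overlapped that of endothelial-like nuclei. Ependymal-like nuclei, of which each library held under 100, had higher PBS levels of Hsp90aa1, Hsph1 and Dnajb1. In the neurofilament-led cluster Hsp90aa1 stood at 3166 and 2094 CPM and Hspa8 at 1777 and 1239. All 6 genes were lower in this cluster in the AEVs library, with a median log2 ratio of -0.69 against -0.05 for all its genes. Of 8 genes with enough UMIs, 4 were lower by at least 1.5-fold, Hsph1, Dnajb1, Hsp90aa1 and Bag3, beside 15.4% of all genes of the cluster, and 0 were higher by that much, beside 9.73%. These nuclei were shallow, and 438 PBS and 204 AEVs nuclei had under 1000 UMIs. Their mean mitochondrial share was 2.41% and 2.53%, the highest of the 12 classes. Neuron markers were lower in 8 of 10 (summed levels of 4117 and 3337 CPM, median log2 ratio of -0.44), and astrocyte markers higher in 6 of 8 (1161 and 1470 CPM). The part of these measures in the chaperone levels was not tested.

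**Figure D4:**
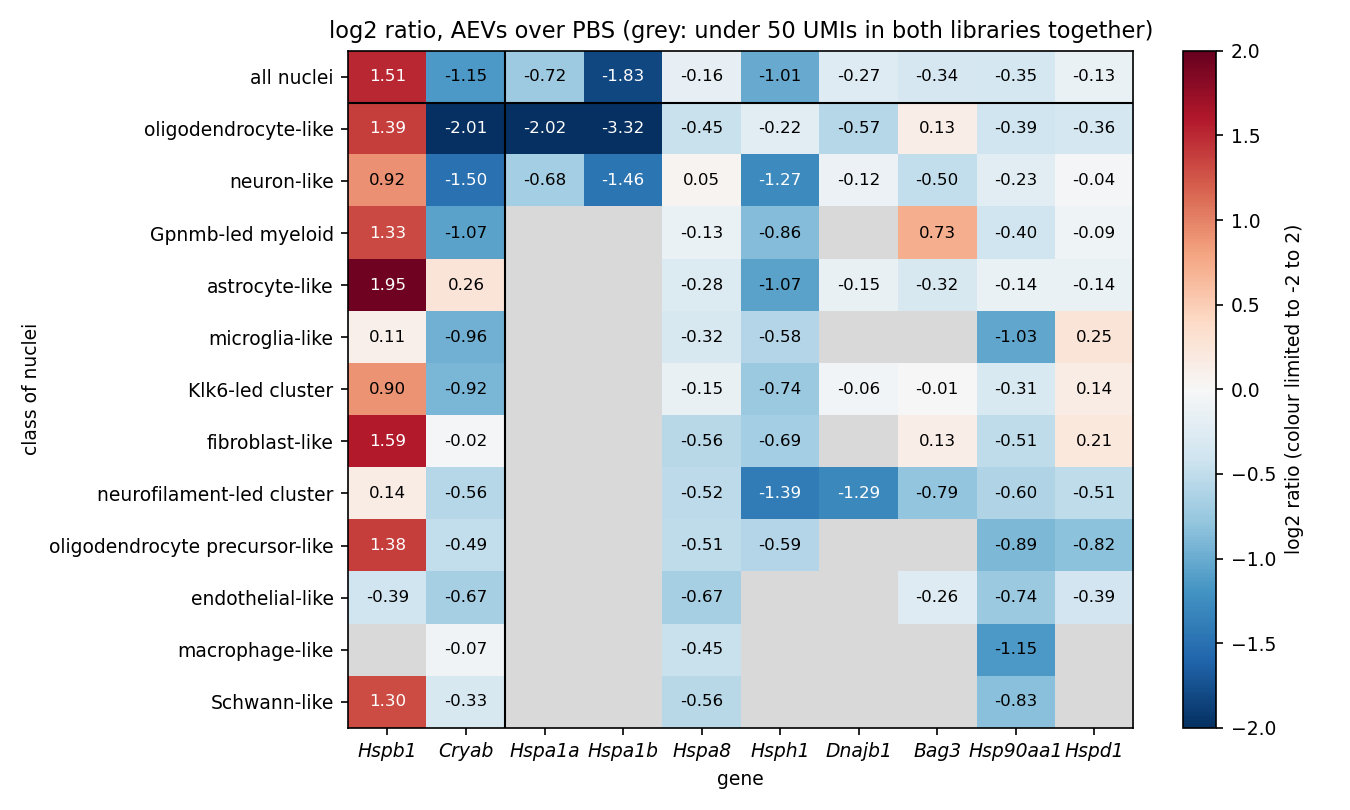
Log2 ratio, AEVs over PBS, for 10 genes (columns, small heat shock genes left of the line) over all nuclei and in 12 classes (rows), with red higher and blue lower in the AEVs library and grey for under 50 UMIs in both libraries together. The Hspb1 column is red except for endothelial-like nuclei at -0.39 and macrophage-like nuclei in grey, the Cryab column is blue except for astrocyte-like nuclei at 0.26, and the Hsp90aa1 column is blue throughout.

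Within neuron-like nuclei, 4 genes had 1 direction in all 12 clusters and the others were mixed. Hsph1 was lower in the AEVs library in 12 of 12 neuron-like clusters, with log2 ratios from -1.78 to -0.62, and in the class it went from 61.7 to 25.6 CPM (2638 and 1084 UMIs). At least 1 Hsph1 UMI was found in 45.9% of PBS and 18.6% of AEVs neuron-like nuclei, and in 6.14% and 2.23% after thinning. Hsp90aa1 was lower in 12 of 12 clusters too, but by less, from -0.55 to -0.02. Hspa8 was higher in 8 clusters and lower in 4, Dnajb1 higher in 5 and lower in 7, and Hspd1 higher in 4 and lower in 8. Bag3 was higher in 3 and lower in 8 of the clusters in which it could be compared.

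Hspb1 and Cryab kept their opposite signs in neuron-like nuclei, at low levels. Hspb1 was higher in 12 of 12 clusters, and went from 11.6 to 22.0 CPM in the class, and over both libraries its level was 0.0119 of that in astrocyte-like nuclei. Cryab was lower in 12 of 12. Astrocyte markers in the class summed to 262 and 209 CPM, with 8 of 10 lower. Whether Hspb1 RNA from astrocyte-like nuclei entered this value was not tested. Of the 10 genes, 1 was at least 1.5-fold higher in neuron-like nuclei (Hspb1, beside 11.1% of all genes) and 4 at least 1.5-fold lower (Hspa1a, Hspa1b, Hsph1 and Cryab, beside 3.94%).

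**Figure D5:**
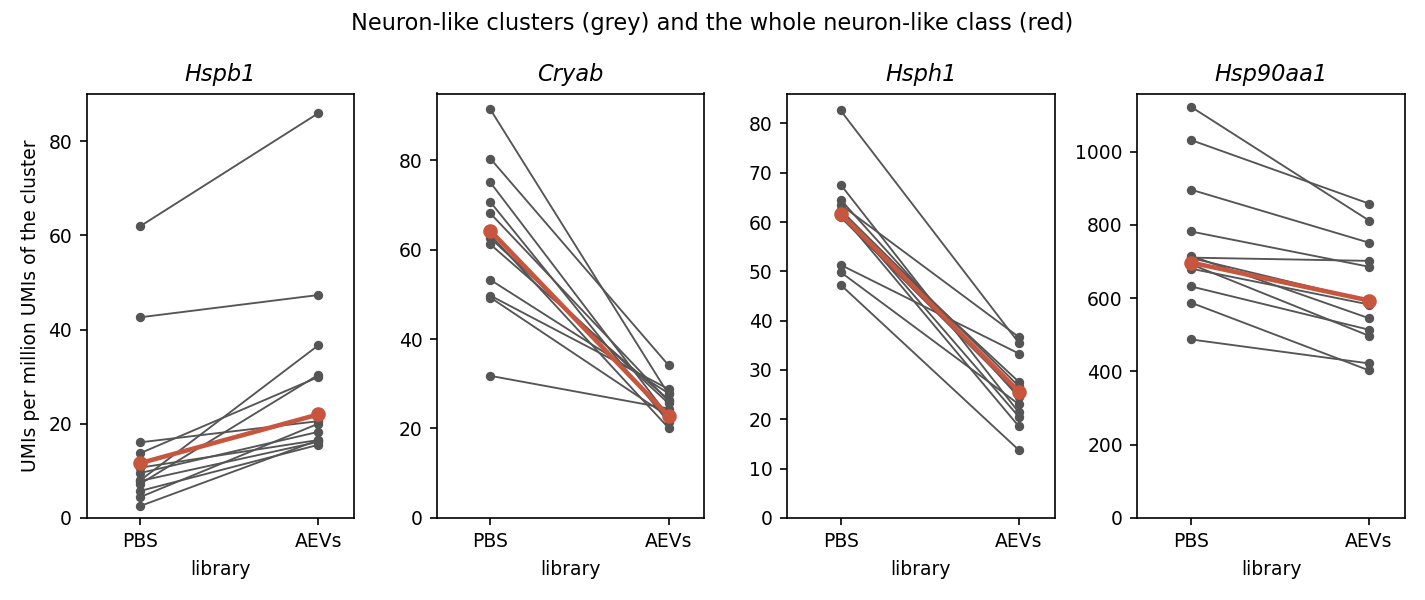
Levels of the 4 genes with 1 direction throughout, in CPM, in each of 12 neuron-like clusters (grey lines) and in the whole class (red line), PBS library on the left and AEVs library on the right of each panel. Every grey line is higher on the AEVs side for Hspb1 and lower for Cryab, Hsph1 and Hsp90aa1, and the class moves from 61.7 to 25.6 for Hsph1.

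The contrast between the small heat shock pair and the other chaperones depended on the class. In astrocyte-like nuclei the mean of the pair was 1.10, and the 6 others with enough UMIs had a median of -0.21, a gap of 1.32. Gaps of similar size were found in fibroblast-like (1.29), Schwann-like (1.18) and oligodendrocyte precursor-like nuclei (1.15). Cryab had log2 ratios of -0.02, -0.33 and -0.49 there, so Hspb1 alone of the pair was higher, unlike in astrocyte-like nuclei. The others with enough UMIs numbered 5, 2 and 4 in these classes. In oligodendrocyte-like and neuron-like nuclei the gap was 0.11 and 0.08, since Hspb1 and Cryab offset each other. In endothelial-like nuclei both small heat shock genes were lower, and the mean of the pair and the median of the others were both -0.53. In oligodendrocyte-like nuclei 1 of 10 genes was at least 1.5-fold higher (Hspb1, beside 13.4% of all genes) and 3 were at least 1.5-fold lower (Hspa1a, Hspa1b and Cryab, beside 6.09%). In astrocyte-like nuclei these counts were 1 of 8 (Hspb1, beside 7.28%) and 1 of 8 (Hsph1, beside 4.6%).

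The remaining classes repeated parts of this layout. In Gpnmb-led myeloid nuclei 2 of 7 genes were at least 1.5-fold higher (Hspb1 and Bag3, beside 11.5% of all genes) and 2 at least 1.5-fold lower (Hsph1 and Cryab, beside 7.28%). In the Klk6-led cluster 1 of 8 was higher by that much (Hspb1, beside 15.5%) and 2 lower (Hsph1 and Cryab, beside 4.78%). In fibroblast-like nuclei 1 of 7 was higher (Hspb1, beside 11.4%) and 1 lower (Hsph1, beside 7.48%). Oligodendrocyte precursor-like nuclei had 1 of 6 higher (Hspb1, beside 9.04%) and 3 lower (Hsph1, Hsp90aa1 and Hspd1, beside 7.88%). In these nuclei all 7 astrocyte markers with enough UMIs were higher (summed levels of 755 and 1088 CPM) and 9 of 10 oligodendrocyte markers lower (3909 and 2142 CPM), and their part in the values was not tested. Schwann-like nuclei had 1 of 4 higher (Hspb1, beside 10.6%) and 1 lower (Hsp90aa1, beside 10.5%).

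Besides the neurofilament-led cluster, none of the genes was higher by 1.5-fold in endothelial-like, microglia-like and macrophage-like nuclei. Endothelial-like nuclei had 0 of 6 higher, beside 9.56% of all genes, and 3 lower (Cryab, Hsp90aa1 and Hspa8, beside 8.61%). Microglia-like nuclei had 0 of 6 higher, beside 12.3%, and 2 lower (Cryab and Hsp90aa1, beside 5.21%). Macrophage-like nuclei had 0 of 3 higher, beside 13.6%, and 1 lower (Hsp90aa1, beside 14.8%).

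The genes most like Hspb1 in level were sought over 24 points, 12 classes in each of 2 libraries, among 15838 genes, by Pearson's r of log2(CPM + 1). Points of 1 library share its depth and its free RNA, and the values are descriptions. The 5 closest to Hspb1 were Hspb8 (0.91), a small heat shock protein that partners BAG3, Gstm1 (0.90), Lcn2 (0.89), Fdx1 (0.88) and Gfap (0.88), the filament protein of astrocytes. Bag3 itself had 0.82 with Hspb1 and Cryab 0.19. The 5 closest to Cryab were Tspan15 (0.92), Cdh19 (0.91), Plekhb1 (0.90), Mbp (0.89), which encodes myelin basic protein, and Igsf11 (0.88). For Hspa1a they were Synpo (0.84), Pde5a (0.80), Pls3 (0.80), Hspa1b (0.79) and Dcdc2a (0.76).

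By the log2 ratio over the 12 classes, among 4197 genes with at least 20 UMIs in every class, the order was another. Closest to Hspb1 were Nrg3 (0.81), Dpp6 (0.80), 4833439L19Rik (0.79), Dicer1 (0.78) and Clec16a (0.77). Closest to Cryab were Col1a2 (0.80), Lrch1 (0.79), Camta1 (0.76), Zfhx3 (0.76) and Ppp3ca (0.74). Over only 12 points, the highest of 4197 values of r can be this high for unrelated genes, so nothing is read from these names. Hspa1a had too few UMIs in some classes for this measure.

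Other genes of the heat shock pathway are given by list. The gene of the main factor, Hsf1, stood at 25.2 and 26.8 CPM, a log2 ratio of 0.09 with an interval that included 0. Of 5 genes, those of heat shock factors and of the factor-binding protein HSBP1, 4 were higher, or 3 relative to the median of all genes. Their median was 0.17, with Hsf4 highest at 0.62. Of 4 other small heat shock genes with enough UMIs, 3 were higher, with a median of 0.17 beside 0.10 for all genes. Hspb6, which encodes HSP20, led them, with 3.09 and 5.68 CPM and a log2 ratio of 0.88 (0.64 to 1.12). Of 15 further genes known to respond to heat shock factor 1, 9 were lower and 6 higher (10 and 5 relative to the median of all genes), with a median of -0.12. Serpinh1, a collagen chaperone of the endoplasmic reticulum, was lowest, from 37.4 to 11.7 CPM, and Sqstm1, an autophagy receptor, was highest, from 96.2 to 136.

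Partner families of the members were mixed in direction. Of 10 other HSP90 genes and co-chaperones 5 were higher and 5 lower, with a median of -0.03, and relative to the median of all genes 2 were higher and 8 lower. Hsp90ab1, the HSP90 made without stress, was at 604 and 462 CPM, a log2 ratio of -0.39, and Stip1, which hands clients from HSP70 to HSP90, at 65.8 and 49.8. In oligodendrocyte-like nuclei, 8 of these 10 were lower, with Hsp90ab1 at 688 and 305 CPM, a log2 ratio of -1.18 (-1.24 to -1.11). Of 8 other HSP70 and HSP110 genes 4 were higher and 4 lower, lowest for Hspa4l at -0.49. Of 12 J-domain genes 7 were higher and 5 lower, which became 4 and 8 relative to the median of all genes. A list of BAG proteins, exchange factors and other chaperone partners had 10 genes. Of these 6 were higher and 4 lower, with St13, a partner and not an exchange factor, lowest at -0.31.

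A list that joined the cytosolic chaperonin with mitochondrial chaperones and proteases, and a list of the endoplasmic reticulum, had opposite majorities over all nuclei. Of the 14 genes of the first list 13 were higher in the AEVs library, with a median of 0.20 (0.10 for all genes) and Clpp, a mitochondrial protease, highest at 0.52. Hspe1, the partner of Hspd1, was the single lower one at -0.16, beside -0.13 for Hspd1 itself. Relative to the median of all genes, 10 of the 14 were higher and 4 lower. Of 14 chaperones of the endoplasmic reticulum 12 were lower, with a median of -0.17, and relative to the median of all genes 13 were lower. Dnajb9 was the highest of these at 0.73, and Sdf2l1 the lowest at -0.46. Classes differed from this. In the Klk6-led cluster 13 of 14 genes of the first list and 12 of 14 of the second were higher, or 11 of 14 in each relative to the median of all genes. In endothelial-like nuclei 8 of 11 and 7 of 11 were lower, or 8 of 11 in each relative to that median.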

How the data were processed

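Single-nucleus RNA was counted in 2 libraries, 1 per group. The deposited values are raw counts of UMIs per gene and barcode, as the files show. Per the submitters' processing notes the genome build was mm10 and Seurat was used, with no version. No aligner, and no removal of free RNA or doublets, is given in the sources used here. Per the labels' protocols the kit reads the 3-prime end of polyadenylated RNA from nuclei of frozen cord.

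Nuclei with at least 300 genes, at least 500 UMIs and under 5% mitochondrial UMIs were kept, and doublets called by Scrublet in scanpy 1.11.5 were removed, 771 PBS and 1400 AEVs nuclei (5.21% and 8.26%) at random seed 0. These calls depended on the seed: over seeds 0 to 4 Scrublet called 771, 0, 747, 1 and 1 PBS nuclei, and from 1280 to 1400 AEVs nuclei. Both libraries were clustered together without integration (2000 variable genes, 30 principal components, 20 neighbours, Leiden at resolution 1, igraph 0.11.9). Clusters were named by listed markers, of which at least 3 had to reach 2 times the median over clusters. The scoring, and the names of the 3 sets called by leading genes, were made after the clusters were seen. For each class and library, a gene's UMIs were added up and scaled to 1000000 UMIs of the class (CPM). Levels carry exact Poisson, ratios exact conditional binomial and shares exact Clopper-Pearson intervals at 95%. For all nuclei and the 12 classes a ratio is given where a gene had at least 50 UMIs in both libraries together. Single clusters and ependymal-like nuclei were not held to that minimum. A difference of 1.5-fold is a mark of size and no test. Alternatives were other scalings (edgeR 4.0.16 TMM factors), filters, clusterings, weights and thinning. Scripts were tested on simulated data.

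The 10 genes and the other lists were chosen with earlier results of these data known. All 10 were named in each class, and of each other list up to 2 highest and 2 lowest members over all nuclei. The genes most alike in level were the 5 with the highest r. Gene positions are from GENCODE release M21, and promoter windows from RefSeq.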

Additional observations from a re-analysis of the deposited data

Results flagged for a closer look

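Hspb1 and Cryab each had opposite signs in classes where they were abundant, with counting intervals that excluded 0 on both sides. The log2 ratio of Hspb1 was 1.95 in astrocyte-like and -0.39 in endothelial-like nuclei, a class that also held mural and red blood cell markers. That of Cryab was 0.26 in astrocyte-like nuclei, where a smaller share of AEVs than of PBS nuclei held a Cryab UMI. It was -2.01 in oligodendrocyte-like nuclei. With 1 library per group the difference between classes was not tested. Over the settings that were run, Hspb1 lay between 1.46 and 2.54 in astrocyte-like and between -0.53 and -0.28 in endothelial-like nuclei. Cryab lay between 0.13 and 0.57 in astrocyte-like and between -2.17 and -1.80 in oligodendrocyte-like nuclei.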

How the results depend on the processing

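No paired analysis was possible because each group was 1 library, and no replicate could be left out. Values are printed where they moved by more than counting error. Hspb1 over all nuclei (1.51 as reported) was 1.42 centred on the median gene and with TMM factors, 1.02 with each nucleus weighted alike, 1.10 thinned to 1000 UMIs, 1.73 with the stricter filter (500 genes, 1000 UMIs, 2% mitochondrial), 1.43 with doublets kept and 1.85 with the same mix of clusters. Cryab over all nuclei (-1.15) was -1.24 centred and with TMM, -1.37 weighted alike, -1.49 thinned, -1.21 with the stricter filter and -1.07 with the same mix. The median of the 8 others (-0.34) was -0.44 centred, -0.43 with TMM, -0.51 weighted alike, -0.46 thinned and -0.25 with the stricter filter. The pair minus the others (0.52) was 0.34 weighted alike, 0.26 thinned and 0.72 with the same mix. Cryab in oligodendrocyte-like nuclei (-2.01) was -2.11 centred, with TMM and thinned, -2.07 weighted alike, -2.13 with no mitochondrial limit, -2.17 with doublets kept, -2.14 clustered without chaperone genes and -2.15 with the same mix.

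Other settings were chosen after seeing the data. The Klk6-led cluster added gave -1.80 for Cryab in oligodendrocyte-like nuclei. Leaving out the top nucleus gave 1.29 (Hspb1), -1.20 (Cryab) and 0.39 (pair), and leaving out the top 1% of nuclei 1.01, -1.41 and 0.16, with -2.07 in oligodendrocyte-like nuclei. The cause of these shifts was not tested. Of 42 values past 1.5-fold, 0 reversed in 529 alternative values, and 20 of those came under 1.5-fold. Some alternatives could not reverse such a value. The other scalings moved log2 ratios by at most 0.13, and other clusterings of the same nuclei left all-nuclei values unchanged. Doublet calls in the PBS library ranged from 0 to 771 nuclei over 5 random seeds, so the values with doublets kept bear on each result. Protein identities were not run.

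Counting error leaves out differences between mice and pools, and for levels and ratios also those between nuclei. Hspa1a and Hspa1b had enough UMIs in 2 of 12 classes, so values missing for the others are a limit of depth.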

Other observations

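Ependymal-like nuclei, the ciliated lining of the central canal, numbered 85 and 83, under the minimum of 100 nuclei per library, and held a wider Hsp90aa1 difference than any of the 12 classes. Their level was 4743 CPM in the PBS library (1635 UMIs) and 1020 in the AEVs library (303 UMIs), a log2 ratio of -2.22 (-2.40 to -2.04). Hspa8 was at 969 and 582 CPM and Hspd1 at 145 and 64.0. Hspa1a had 31 and 2 UMIs and Hspa1b 41 and 1, both under the minimum of 50. Their ratios (AEVs over PBS) were 0.0749 with an interval from 0.00868 to 0.294 and 0.0283 with an interval from 0.0007 to 0.167. Hspb1 was lower here as well, 252 and 90.9 CPM, while Cryab was at 116 and 165 with an interval that included 0. Hsph1 was at 206 and 138 CPM and Dnajb1 at 60.9 and 26.9. The ependymal marker Foxj1 was at 673 and 401 CPM.

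The 2 cold-inducible genes, which encode RNA-binding proteins made at lower body temperature, were higher in the AEVs library, Cirbp from 29.6 to 88.3 and Rbm3 from 57.8 to 155 CPM. They were higher in each class in which they had enough UMIs. All 12 immediate early genes, which cells switch on within minutes of a stimulus, were lower over all nuclei, with a median log2 ratio of -0.56. By class the direction varied, with 9 of 9 lower in astrocyte-like and endothelial-like nuclei, 9 of 12 lower in neuron-like nuclei, 5 of 9 higher in oligodendrocyte-like nuclei (median 0.43) and 4 of 4 higher in microglia-like nuclei (median 0.60). Over all nuclei Fosb was lowest, from 6.03 to 1.10 CPM, and Egr1 went from 27.2 to 13.6. Their part in the chaperone values was not tested.

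An unnamed cluster of 50 PBS and 16 AEVs nuclei, numbered 14, held 499 and 1372 Hspb1 UMIs. Of its 16 AEVs nuclei, 1 held 753 of them.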
